A study of Mus musculus with 24 samples.

Results

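The genes described here encode 10 proteins of blood coagulation made in the liver: prothrombin (F2), factors V, VII, IX, X, XI and XII (F5, F7, F9, F10, F11 and F12), the factor XIII B subunit (F13b), plasma prekallikrein (Klkb1) and histidine-rich glycoprotein (Hrg). They were picked as coagulation and contact factors without fibrinogen, and were chosen in part from their measured dose differences in these same samples. Their levels by dose are therefore a description and carry no p-value. All 10 were found by symbol among 15582 genes. Expression was measured by RNA sequencing in frozen liver of mixed lobes from male B6C3F1 mice, 4 weeks old, that drank water holding dichloroacetic acid (DCA) for 6 days. DCA forms when drinking water is chlorinated, and it inhibits pyruvate dehydrogenase kinase. The 4 groups were 0 (control), 1, 2 and 3.5 g/L DCA, each with 6 libraries, 24 in all, and strain, sex, age and tissue were shared by all of them. Values are RPKM, read numbers divided by gene length and library depth, so that levels can be compared between genes.

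Coagulation factors circulate as inactive precursors that activate each other in a chain of proteolytic cuts. In the tissue factor branch, factor VII with tissue factor activates factor X. In the contact branch, factor XII and prekallikrein activate each other, and factor XII activates factor XI, which activates factor IX. Both branches meet at factor X, which with its cofactor, factor V, turns prothrombin into thrombin. Thrombin cuts fibrinogen into fibrin, and factor XIII crosslinks it. Hepatocytes make and secrete most of these proteins, and factors II, VII, IX and X need a vitamin K-dependent carboxylation before they can work.

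Each library held about 23,700,000 to 28,100,000 reads, as judged from the smallest steps in its RPKM values, which put roughly 530 reads (F11, lowest library) to 52620 reads (F2, highest library) behind a member's value. These read numbers are approximate, because they rest on annotated gene lengths. Pairs of libraries of 1 dose correlated across genes at r = 0.9688 to 0.9954 (60 pairs). No label ties each library to a separate mouse, so p-values below measure the spread between these samples. The titles of the samples hold a mark of unstated meaning, here called the title tag. It was L1 in all controls and in 3 libraries at 1 g/L, L2 in the other 3 there and in all at 2 g/L, and L3 in all at 3.5 g/L, where tag and dose cannot be told apart. The liver label was in keeping with the markers: 8 of 8 hepatocyte markers (albumin Alb among them) were present at a summed 29558 to 36436 RPKM in controls, and 8 platelet and megakaryocyte markers summed to 1.08 RPKM at most in any control and never passed the filter on low values. Library 78 at 2 g/L stood apart, with Ehhadh, an enzyme of peroxisomal fat oxidation, at 165 RPKM against 673 to 1559 in the other libraries of that dose.

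In control liver the levels ran from F2 at 446 ± 15.8 RPKM (SD, n = 6) to F7 at 23.3 ± 0.949 RPKM. Between them came Hrg (245 ± 18.5), F10 (87.6 ± 9.43), F12 (84.8 ± 4.24), F5 (71.6 ± 5.17), Klkb1 (58.3 ± 5.74), F13b (44.9 ± 3.87), F9 (37.6 ± 2.05) and F11 (30.8 ± 3.52 RPKM). The ranges of the 6 libraries overlapped between F10 and F12, between F13b and F9 and between F9 and F11, and the other neighbours in this order did not overlap. Over the 6540 genes that passed the filter, these control means ranked from 47 (F2) to 713 (F7), so all 10 members were well within the measured range and all passed it.

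The bases just before 2 of the starts are shown first because F12 was the member most like F2 over the 24 libraries (values further on). Each is 120 bases long, 5′ to 3′ on the gene's own strand, from RefSeq on GRCm38.p6, at chr2:91636458-91636577 (minus strand) for F2 and chr13:55426805-55426924 (minus strand) for F12, and neither held any of the motifs searched.
F2: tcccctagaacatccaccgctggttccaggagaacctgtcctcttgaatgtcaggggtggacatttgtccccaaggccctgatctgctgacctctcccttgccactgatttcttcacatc
F12: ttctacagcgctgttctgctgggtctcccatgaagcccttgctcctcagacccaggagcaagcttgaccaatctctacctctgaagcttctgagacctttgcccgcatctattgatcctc

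Motifs of 3 liver transcription factors and the TATA box were searched on both strands of the 250 bases before each member's start, as RefSeq's promoter table sets it. All 10 members had such a window in RefSeq. For 4 members RefSeq's longest gene model begins further upstream than that start, so the whole window of F7 and the last 160 bases of that of F13b, 135 of that of F9 and 24 of that of F11 lie within the gene model. The next sequences are 30-base stretches around a match, with the matched bases in capitals, and they show which members carry which motif. They lie at chr8:45262038-45262067 (F11, minus strand), chr8:45294838-45294867 (Klkb1, minus strand), chrX:59999429-59999458 (F9, plus strand), chr16:22950928-22950957 (Hrg, plus strand) and chr8:13025990-13026019 (F7, plus strand).
F11, FOXA: taacggcacaaGTAAACAtttaagcaacag
Klkb1, FOXA: agaaacccagtGTAAACActggagccaagc
F9, C/EBP: agccctgacgcTTGCACAAtctcctaacaa
Hrg, C/EBP: gatatagcataTTGCACAAatgatgatttt
F7, HNF4: ccctccccccTGACCTTTGccctcccggca

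The FOXA letters TGTTTNC were found in F11 and Klkb1, 2 of 10 members, against 17.8% of 32851 RefSeq windows of that length. The same 7 letters, GTAAACA, stand 25 to 19 bases before the F11 start that the table uses, nearly all inside the longer gene model, and 21 to 15 bases before that of Klkb1, its neighbour on chromosome 8. The C/EBP letters TTGCNNAA were found in 4 members (F9, F11, Klkb1 and Hrg; 9.56% of windows). The HNF4 letters CAAAGGTCA were found in F7 (0.426% of windows) and CAAAGTCCA in 0 members (0.384%), and TATAAA in Klkb1 (12.4%). None of these matches in the members overlapped another. A match says that the letters are there and nothing of whether the factor binds.

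All 10 members had lower means at 3.5 g/L DCA than in controls, from 32.8% of the control mean (F11) to 79.8% (F13b). With a limma model of log2(RPKM + 1) and a Benjamini-Hochberg adjusted p under 0.05 over all tested genes, 5 members were called lower at 1 g/L (F2, F5, F9, F12 and Hrg), 9 at 2 g/L (all but F10) and 10 at 3.5 g/L, and 0 were called higher at any dose. Over all 6540 tested genes the shares called lower were 3.03%, 10.05% and 12.9% in order of dose, and those called higher 8.35%, 41.9% and 38.6%. Because the members were picked with these contrasts known, nothing is read from their counts. The members' median log2 difference was −0.23, −0.52 and −0.65 at the 3 doses, beside 0.05, 0.12 and 0.10 for all tested genes. Median-ratio scaling brought the median of all genes to about 0 and moved the members' medians to −0.30, −0.68 and −0.79. It also changed the split of calls over all genes, from 657 lower and 2738 higher to 1376 lower and 1392 higher at 2 g/L, and F10 was then called lower there (−0.30). At 1 g/L the split went from 198 and 546 to 340 and 233, and at 3.5 g/L from 843 and 2525 to 1525 and 1538.

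**Figure D1:**
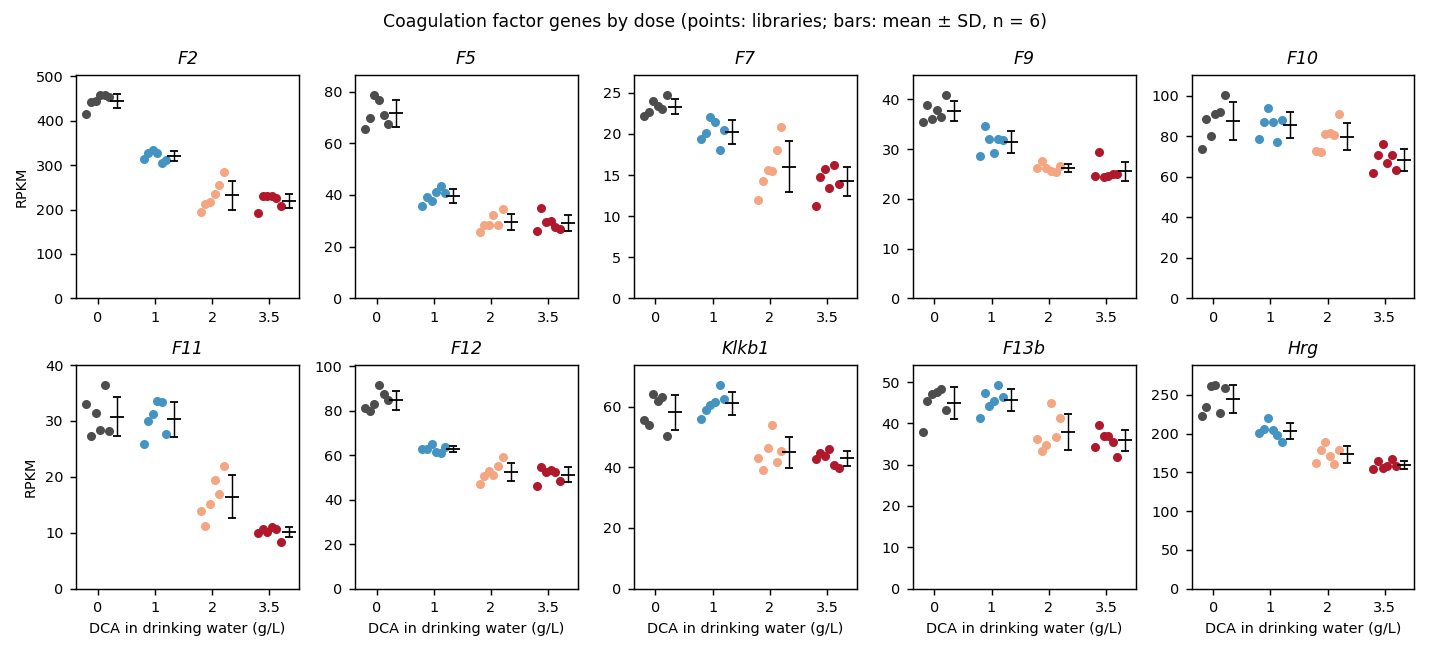
RPKM of the 10 coagulation factor genes (one panel each, linear axes from 0) against DCA dose; points are single libraries and bars are mean ± SD (n = 6). F2, F5, F7, F9, F12 and Hrg lie below all controls at each dose, F11 at 2 and 3.5 g/L, Klkb1 at 3.5 g/L, and F10 and F13b overlap the controls at each dose.

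The members whose 6 libraries all lay below the 6 controls numbered 6, 7 and 8 in order of dose, where 1.61%, 3.104% and 5.86% of all tested genes did. These doses all use the same controls. Hepatocyte markers were lower too: of 8 tested, limma called 1, 6 and 7 lower in order of dose, with 1 (Hnf4a) higher at the top dose, and their summed level was 22383 to 28125 RPKM at 3.5 g/L, below all controls. Kupffer cell markers were called lower in 8 of 9 at 3.5 g/L and in 0 of 9 at 1 and 2 g/L, at a summed 60.3 to 83.6 RPKM at 3.5 g/L against 93.3 to 136 in controls. The part of either in the members' levels was not tested. In bulk liver, fewer hepatocytes and less RNA per hepatocyte cannot be told apart.

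Prothrombin, the precursor of thrombin, lies at chr2:91625320-91636414 (GRCm38, GENCODE annotation, minus strand). F2 measured 416 to 458 RPKM in the controls (median 449), 305 to 334 at 1 g/L (median 321), 195 to 284 at 2 g/L (median 225) and 193 to 232 at 3.5 g/L (median 228). No treated library reached a control, and no library at 2 or 3.5 g/L reached the 1 g/L libraries. Control library 3 was the lowest control, with the other 5 at 443 to 458 RPKM. The log2 difference from control was −0.48, −0.94 and −1.02 (SE 0.07 each), and the mean at 3.5 g/L (219.9 RPKM) was 49.3% of the control mean. Library 78 was the highest of its dose, and without it the difference at 2 g/L was −1.004.

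Factor V, the cofactor that speeds thrombin formation, had lower levels at the lowest dose already. F5 (chr1:164151838-164220277) measured 65.7 to 78.7 RPKM in the controls (median 70.4), 35.8 to 43.3 at 1 g/L (median 39.98), 25.6 to 34.5 at 2 g/L (median 28.3) and 26.2 to 34.9 at 3.5 g/L (median 28.6). Every 1 g/L library was thus below every control, and the 2 and 3.5 g/L groups overlapped. The log2 differences were −0.84, −1.25 and −1.27 (SE 0.07), the most negative of the 10 members at 1 and at 2 g/L. F5 overlaps an antisense lincRNA, Gm16548, and a processed pseudogene, Gm16588, and with the strand setting of the counting not given in the sources used here, some reads may belong to these.

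Factor X, the enzyme where both branches meet, differed least of the 10 members from the controls at 2 g/L. F10 (chr8:13037308-13056676) measured 73.7 to 100.4 RPKM in the controls (median 89.6), 77.0 to 94.0 at 1 g/L (median 87.2), 72.3 to 90.9 at 2 g/L (median 80.8) and 61.9 to 76.3 at 3.5 g/L (median 68.8). The groups overlapped at every dose. Its log2 differences were −0.03, −0.13 and −0.35 (SE 0.07). Leaving out control library 3, the lowest control, brought the 2 g/L difference to −0.18 and past limma's threshold.

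Factor VII begins the tissue factor branch and has the shortest-lived protein of the vitamin K-dependent factors. F7 (chr8:13026034-13035809) measured 22.1 to 24.8 RPKM in the controls (median 23.2), 18.0 to 22.1 at 1 g/L (median 20.3), 11.9 to 20.9 at 2 g/L (median 15.5) and 11.2 to 16.3 at 3.5 g/L (median 14.3). All treated libraries were below all controls, and at 2 g/L the libraries spread most, from library 73 (lowest) to library 78 (highest). The log2 differences were −0.20, −0.53 and −0.69 (SE 0.09), and −0.61 at 2 g/L without library 78. At 1 g/L its difference did not pass limma's threshold although the ranges did not overlap.

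Factor IX, whose absence causes haemophilia B, had its smallest spread between libraries at 2 g/L (SD 0.787 RPKM). F9 (chrX:59999464-60030759) measured 35.4 to 40.9 RPKM in the controls, 28.7 to 34.6 at 1 g/L, 25.4 to 27.6 at 2 g/L and 24.5 to 29.5 at 3.5 g/L. The log2 differences were −0.25, −0.50 and −0.54 (SE 0.05), with all treated libraries below all controls. Library 98 was the highest at 3.5 g/L, apart from the other libraries of that dose at 24.5 to 25.1 RPKM.

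Factor XI had the most negative difference of the 10 members at 3.5 g/L and almost none at 1 g/L. F11 (chr8:45241174-45262031) measured 27.4 to 36.4 RPKM in the controls (median 29.8), 25.9 to 33.5 at 1 g/L (median 30.6), 11.1 to 21.9 at 2 g/L (median 16.1) and 8.40 to 11.1 at 3.5 g/L (median 10.3). Control and 1 g/L libraries occupied the same range, and the 2 g/L libraries lay below both. The log2 differences were −0.02, −0.89 and −1.52 (SE 0.11), and the mean at 3.5 g/L was 32.8% of that in controls. Library 78 was again the highest of its dose, and without it the 2 g/L difference was −0.98 (SE 0.11).

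Factor XII, which starts the contact branch on charged surfaces, followed F2. F12 (chr13:55417958-55426793) measured 80.1 to 91.6 RPKM in the controls (median 84.1), 61.0 to 65.2 at 1 g/L (median 62.9), 47.2 to 59.0 at 2 g/L (median 52.0) and 46.0 to 54.6 at 3.5 g/L (median 52.6). The 1 g/L libraries sat between the controls and both higher doses without touching either. The log2 differences were −0.43, −0.68 and −0.72 (SE 0.05).

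Plasma prekallikrein is the contact protease that activates factor XII in return and releases bradykinin from kininogen. Klkb1 (chr8:45266689-45294859) measured 50.2 to 64.4 RPKM in the controls (median 58.9), 56.1 to 67.2 at 1 g/L (median 61.2), 39.2 to 54.0 at 2 g/L (median 44.3) and 39.9 to 46.2 at 3.5 g/L (median 43.2). At 1 g/L the libraries overlapped the controls with a slightly higher mean, and only the 3.5 g/L libraries all lay below the controls. The log2 differences were 0.07, −0.37 and −0.43 (SE 0.07). A protein-coding gene model, Gm45753, overlaps Klkb1 on the same strand, so its reads are uncertain.

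Histidine-rich glycoprotein binds heparin, plasminogen and factor XII. Hrg (chr16:22951072-22961656) measured 223 to 263 RPKM in the controls, 189 to 220 at 1 g/L, 160 to 189 at 2 g/L and 154 to 168 at 3.5 g/L, with no overlap between treated libraries and controls. The log2 differences were −0.27, −0.49 and −0.61 (SE 0.06). F13b (chr1:139501702-139523752), whose product carries the crosslinking A subunit in plasma, measured 37.9 to 48.3 RPKM in the controls, 41.3 to 49.3 at 1 g/L, 33.3 to 44.9 at 2 g/L and 31.9 to 39.5 at 3.5 g/L. Its groups overlapped at each dose, and its log2 differences were 0.03, −0.24 and −0.32 (SE 0.07).

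**Figure D2:**
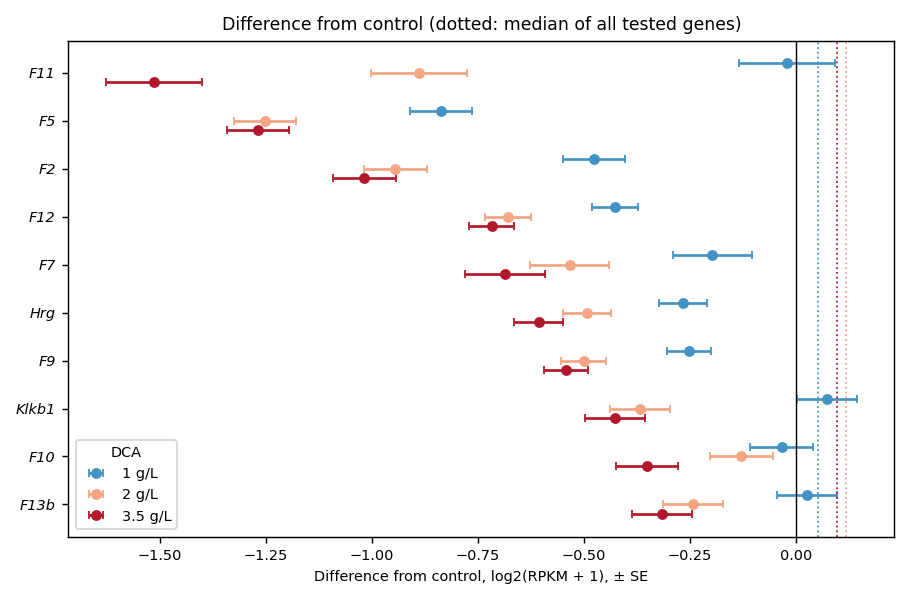
Difference from control in log2(RPKM + 1) with limma's SE for each member (rows) at 1, 2 and 3.5 g/L DCA; dotted lines are the median of all 6540 tested genes at each dose. F5, F12 and F2 are lower from 1 g/L on, while F11 lies near 0 at 1 g/L and at −1.52 at 3.5 g/L.

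The doses at which the members were lower differed between them. At 1 g/L, F5 had 65.9% of its 3.5 g/L difference, F12 59.5%, F2 46.8%, F9 46.7%, Hrg 43.8% and F7 28.7%. F10 had 9.40% (−0.03, SE 0.07) and F11 1.39% (−0.02, SE 0.11), both differences smaller than their SE. F13b (0.03, SE 0.07) and Klkb1 (0.07, SE 0.07) were slightly above 0 at 1 g/L. These signs are uncertain. F13b was at −0.045 with median-ratio scaling, −0.005 with quantile normalization and −0.016 with the title tag as a term, and Klkb1 at 0.001 with median-ratio scaling. F11 and F10 changed sign in 3 and 1 of 24 fits with 1 library left out. From 1 to 2 g/L, 9 members were called lower (all but F10), where 5.63% of all tested genes were, and F11 (−0.87, SE 0.11) had the most negative step. From 2 to 3.5 g/L, 1 member was called lower, F11 (−0.62, SE 0.11), where 5.54% of all tested genes were, and the other 9 had steps between −0.22 (F10) and −0.02 (F5). At 2 g/L the difference of F5 was already 98.6% of that at 3.5 g/L, and that of F2 92.8%, of F11 58.7% and of F10 36.8%.

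F11 with Klkb1 and F7 with F10 are neighbours on chromosome 8, and the ratio within each pair differed with dose. F11 and Klkb1, paralogous contact proteases that lie side by side on the minus strand, had an RPKM ratio of 0.456 to 0.592 within the control libraries (median 0.534). The ratio was 0.443 to 0.544 at 1 g/L, 0.284 to 0.482 at 2 g/L and 0.211 to 0.260 at 3.5 g/L. All libraries at 3.5 g/L were below all controls, while the 1 g/L and 2 g/L groups overlapped the controls. F7 lies just before F10 on the plus strand, and their ratio was 0.247 to 0.3003 in controls, 0.231 to 0.247 at 1 g/L, 0.163 to 0.230 at 2 g/L and 0.182 to 0.230 at 3.5 g/L. For this pair the libraries at 2 and 3.5 g/L all lay below the controls. A ratio within a library does not depend on the scaling between libraries, and it does not show which of a pair moved. Gm45753 overlaps Klkb1 on the same strand, so the ratio of F11 to Klkb1 is uncertain too. The share of other gene pairs without overlap was not computed, so these ratios are a description.

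**Figure D3:**
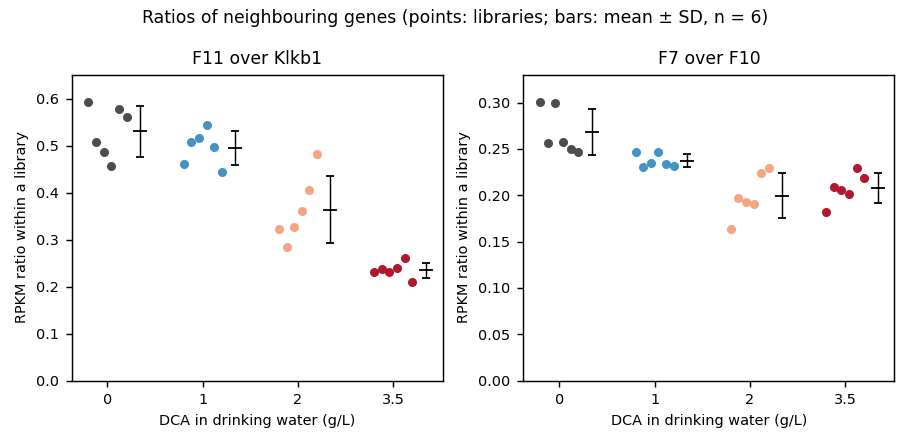
Ratio of the RPKM of 2 neighbouring genes within each library (points) against DCA dose, with mean ± SD (n = 6); axes start at 0. F11 over Klkb1 is 0.530 on average in controls and 0.235 at 3.5 g/L, and F7 over F10 is 0.268 in controls and 0.208 at 3.5 g/L.

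Libraries of 1 dose also differed from each other, and this spread was not used to choose the members. With each dose mean removed, 9 members were correlated with F2 over the 24 libraries on the log2(RPKM + 1) scale, by a two-sided permutation test that shuffled libraries within doses, adjusted over the 9 relations. F7 followed F2 closely (r = 0.91, p = 2e-05, adjusted p = 6e-05; rho = 0.79, p = 0.0001, adjusted p = 0.0003). So did F12 (r = 0.87, p = 2e-05, adjusted p = 6e-05; rho = 0.87, p = 1e-05, the smallest these permutations can give, adjusted p = 9e-05). F10 had r = 0.72 (p = 2e-05, adjusted p = 6e-05) and rho = 0.72 (p = 4e-05, adjusted p = 0.00018).

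These 3 genes had a positive r within each of the 4 doses, from 0.62 to 0.97 for F7, 0.59 to 0.98 for F12 and 0.81 to 0.88 for F10. Without libraries 78 and 73 of 2 g/L, the 2 farthest in F2, r was 0.81 for F7, 0.78 for F12 and 0.67 for F10. F10 thus followed F2 from library to library within a dose although its dose means differed far less. F5 passed the threshold (r = 0.60, p = 0.0092, adjusted p = 0.021; rho = 0.50, p = 0.024, adjusted p = 0.036), but r was 0.37 (permutation p = 0.15) without those 2 libraries. Leaving out the libraries farthest in F2 also narrows its range, so how far the relation rests on them cannot be told from this.

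F11 (r = 0.61, p = 0.029, adjusted p = 0.052; rho = 0.52, p = 0.021, adjusted p = 0.036) and F13b (r = 0.51, p = 0.04, adjusted p = 0.059; rho = 0.58, p = 0.0086, adjusted p = 0.019) passed by rank and missed the threshold by Pearson's r in this permutation test. Without libraries 78 and 73 their r was 0.43 and 0.50. Hrg, Klkb1 and F9 had r = 0.23, 0.17 and 0.13 (adjusted permutation p = 0.44, 0.57 and 0.54; rho = 0.22, 0.21 and 0.08). Members share the depth and scaling of their library. How many of all tested genes would follow F2 in this way was not tested, so these relations are not shown to be particular to the members. With median-ratio scaling r with F2 was 0.90 for F7, 0.87 for F12 and 0.70 for F10, and with quantile normalization 0.83, 0.84 and 0.75.

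**Figure D4:**
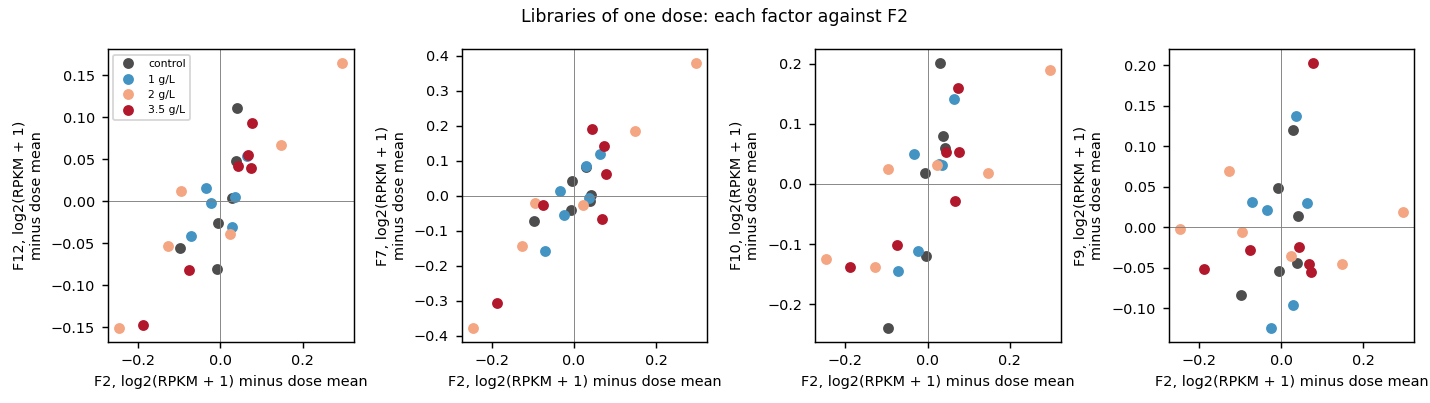
Each point is a library; axes show log2(RPKM + 1) minus the mean of the library's dose, for F2 (x) against F12, F7, F10 and F9 (y, one panel each). F12 (r = 0.87), F7 (r = 0.91) and F10 (r = 0.72) rise along F2, and F9 (r = 0.13) does not pass the test.

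Over all 24 libraries with dose left in, the tested genes most like F2 by Pearson's r of log2(RPKM + 1) were F12 (0.983), 1300017J02Rik (0.983), Hgfac (0.978), Fetub (0.977), Abca2 (0.976), C2 (0.969), Gc (0.968), C1s1 (0.968), Cpq (0.965) and C1ra (0.964). These values describe libraries that share dose, depth and scaling, and carry no p. Of the other members, F5 (0.959), F7 (0.936), Hrg (0.932) and F9 (0.925) ranked 15, 24, 30 and 39 among the tested genes. F11 (0.859), F13b (0.760), Klkb1 (0.759) and F10 (0.721) ranked 84, 216, 218 and 281, with many other genes between. Of the 10 genes named, 8 were again among the 10 most like F2 with median-ratio scaling, and 8 with quantile normalization. C2, C1s1 and C1ra are complement proteases, Gc is the vitamin D-binding protein, and Hgfac encodes a protease related to factor XII that activates hepatocyte growth factor.

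The rest of the clotting system was followed through 83 listed genes outside the members, of which 61 were in the table and 55 were tested; these lists too were drawn up with earlier results known. Of the 55, limma called 7 lower and 3 higher at 1 g/L, 17 and 10 at 2 g/L, and 22 and 11 at 3.5 g/L, to be read against the shares over all genes above. Genes that come later in the alphabet than the last symbol held, such as those of protein C, antithrombin and plasminogen, were not analysed here. Within each list the genes with the largest differences are named, and those added after their values were seen are marked so.

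Of 8 tested genes of the vitamin K cycle and of secretion, 1, 2 and 3 were lower at 1, 2 and 3.5 g/L, and 1 was higher at both upper doses. Ggcx, the carboxylase that modifies prothrombin and factors VII, IX and X, measured 24.02 to 28.04 RPKM in the controls (median 24.9), 17.7 to 20.9 at 1 g/L (median 19.3), 16.1 to 19.5 at 2 g/L (median 17.8) and 14.8 to 16.9 at 3.5 g/L (median 16.5). All treated libraries lay below all controls, and Ggcx fell at each dose in limma's test (log2 −0.38, −0.50 and −0.62, SE 0.05, adjusted p = 0.000124, 1.52e-07 and 1.99e-09). Nqo1, a quinone reductase able to reduce vitamin K, rose at 2 g/L (0.83, SE 0.14, adjusted p = 4.41e-05 with limma) and at 3.5 g/L (0.87), from a control mean of 0.728 to 2.17 RPKM. With the title tag as a term the 2 g/L call of Nqo1 was lost (0.56, adjusted p = 0.119). The cargo receptor subunits Lman1 and Mcfd2, which carry factor V out of the endoplasmic reticulum, did not pass the test at any dose.

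Other clotting and contact genes had 3 of 16 lower at 1 g/L and 0 higher, 5 lower and 2 higher at 2 g/L, and 9 lower and 1 higher at 3.5 g/L. Hgfac, the factor XII relative, fell at each dose, from 48.7 ± 2.99 RPKM in controls to 33.2 ± 0.409, 21.4 ± 6.39 and 18.6 ± 1.98 (SD, n = 6; log2 −0.54, −1.20 and −1.35, SE 0.12; adjusted p from limma = 0.00787, 7.73e-08 and 5.46e-09). Its call at 1 g/L was lost with the title tag as a term (−0.54, adjusted p = 0.0651). Mst1, which encodes macrophage-stimulating protein, a relative of plasminogen, fell at each dose too (−0.42, −0.63 and −0.76, SE 0.06), as did Habp2, a protease able to activate factor VII (−0.27, −0.46 and −0.58, SE 0.06).

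Kininogen, the cofactor of prekallikrein and factor XI, was lower at the upper doses. Kng1 went from 334 to 416 RPKM in controls to 194 to 258 at 3.5 g/L (−0.80, SE 0.09, adjusted p = 9.23e-08 with limma), and its 2 g/L value, added after it was seen, was −0.54 (adjusted p = 3.23e-05 with limma). Kng1 and its copy Kng2 share sequence, so the division of reads between them is uncertain. Tissue factor, F3, the starter of the branch that F7 serves, measured 0.392 to 0.610 RPKM in controls. It measured 0.790 to 1.80 RPKM at 2 g/L (log2 difference 0.63, SE 0.08) and 0.908 to 1.31 RPKM at 3.5 g/L, all above all controls. The control median of F3 (0.45 RPKM) lay below the filter's 0.5 RPKM, so F3 passed the filter through treated libraries, where it is high. Nothing is read from its calls, which the counts above include. F8, the cofactor of factor IX and largely made by endothelial cells, is added here after its values were seen: it measured 3.33 ± 0.376 RPKM in controls and 3.37 ± 0.256 at 3.5 g/L (SD, n = 6; 0.02, adjusted p = 0.864 with limma). At 2 g/L F8 measured 3.89 ± 0.409 RPKM and was called higher (0.17, SE 0.07, adjusted p = 0.0371 with limma). That call of F8 was lost with median-ratio scaling (0.04), quantile normalization (0.03), no filter (0.17) and the title tag as a term (0.12), and without control library 3, 5 or 6 or library 73, 74 or 78 of 2 g/L (0.14 to 0.17).

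Fibrinogen, the substrate of thrombin, had a pattern over dose unlike that of F2. Fgb measured 1590 to 3049 RPKM in controls (median 1735), 1804 to 2030 at 1 g/L (median 1939), 1347 to 2551 at 2 g/L (median 1851) and 959 to 1287 at 3.5 g/L (median 1144). Only the 3.5 g/L libraries lay apart from the controls, and control library 8 was the highest of all. Fgb fell at 3.5 g/L (−0.74, SE 0.14, adjusted p = 0.000158 with limma) and so did Fgg (−0.73, SE 0.15, adjusted p = 0.000291) and, added after its values were seen, Fga (−0.63, SE 0.15, adjusted p = 0.00135). At 2 g/L these 3 genes were at −0.06, −0.07 and 0.05, with adjusted p = 0.752, 0.736 and 0.796 in limma. The difference between the fibrinogen and F2 patterns was not tested. Fgl1, a fibrinogen-like hepatocyte protein, fell at 3.5 g/L as well (−1.50, SE 0.32, adjusted p = 0.000447 with limma).

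The list of anticoagulant and fibrinolysis genes also held general protease inhibitors and other plasma proteins. Of its 9 tested genes, 2, 5 and 6 were lower at 1, 2 and 3.5 g/L, and 2 were higher at both upper doses. The 2 lower at 1 g/L were Mug1 and Itih1, so the 1 g/L count says nothing of anticoagulants or fibrinolysis as such. Mug1, a murinoglobulin that traps proteases, fell from 1072 ± 98.0 RPKM in controls to 348 ± 29.98 at 3.5 g/L (SD, n = 6; −1.62, SE 0.09, adjusted p = 3.98e-12 with limma), and it shares reads with Mug2, so its level is uncertain. Itih1, a heavy chain of the inter-alpha-trypsin inhibitor, fell at each dose (−0.71, −1.14 and −1.44, SE 0.12). Apoh, the phospholipid-binding beta-2-glycoprotein I, fell at 2 g/L (−0.68, SE 0.07, adjusted p = 9.29e-08 with limma), and Anxa2, a plasminogen receptor, rose there (0.64, SE 0.11, adjusted p = 5.2e-05). Ahsg, which encodes the plasma protein fetuin-A, fell at 2 g/L (−0.55, SE 0.12, adjusted p = 0.000706 with limma). That call was lost with the title tag as a term, at a similar difference (−0.56, adjusted p = 0.0843).

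**Figure D5:**
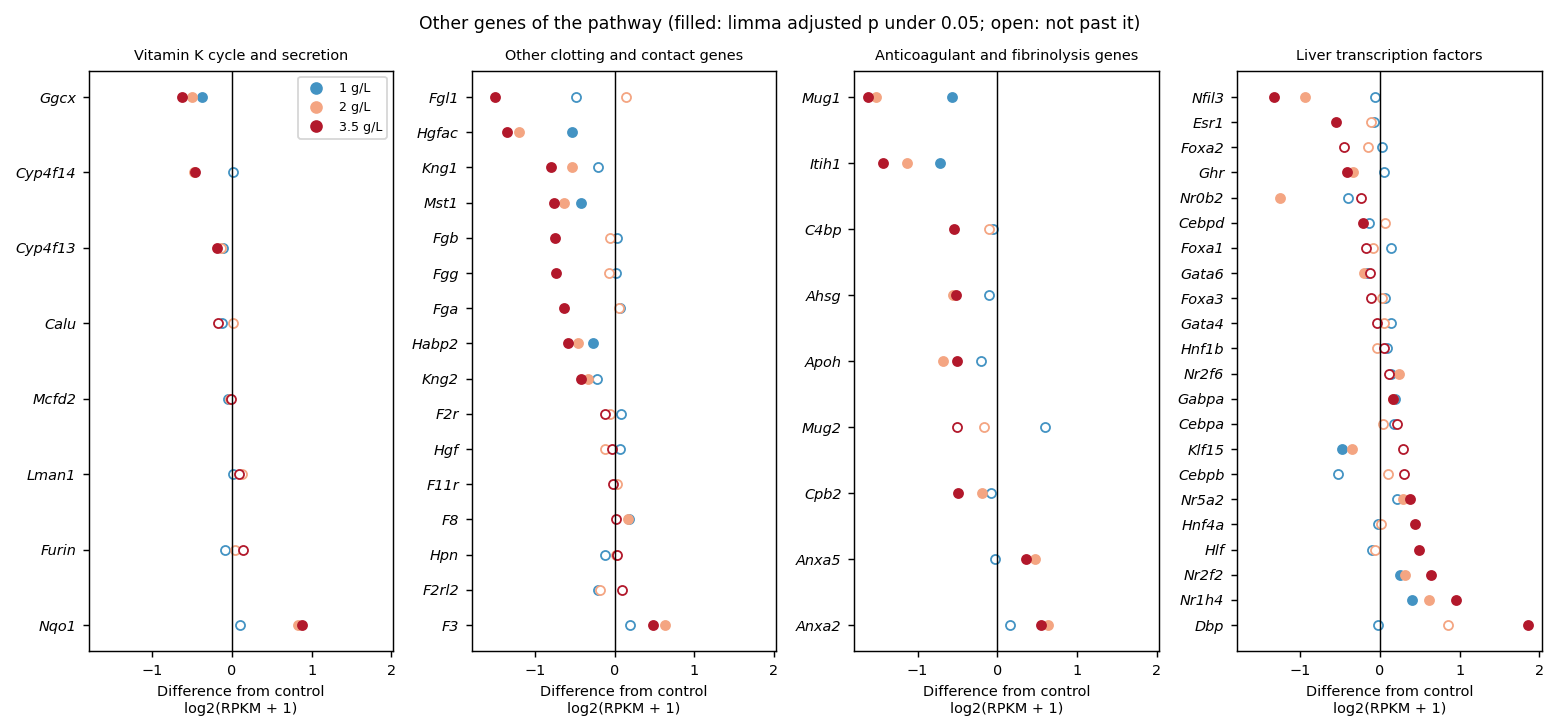
Difference from control in log2(RPKM + 1) for the 55 tested genes outside the members, in 4 lists (panels), at 1, 2 and 3.5 g/L DCA; filled points passed limma's test and open points did not. Ggcx, Hgfac, Mst1, Habp2, Mug1 and Itih1 are filled and below 0 at each dose, and Fga, Fgb and Fgg are filled at 3.5 g/L alone.

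Of 22 tested liver transcription factors and receptors, 1 was lower and 3 higher at 1 g/L, 5 and 5 at 2 g/L, and 4 and 7 at 3.5 g/L. Nr1h4, the bile acid receptor FXR, rose at each dose, from 16.5 ± 3.15 RPKM in controls to 21.9 ± 2.46, 25.5 ± 1.87 and 32.7 ± 2.57 (SD, n = 6; log2 0.40, 0.61 and 0.96, SE 0.09; adjusted p from limma = 0.00787, 9.08e-06 and 1.02e-08). Its call at 1 g/L was lost with the title tag as a term (0.33, adjusted p = 0.124). Klf15, a glucocorticoid-induced factor, was the 1 gene lower at 1 g/L (−0.47, SE 0.13, adjusted p = 0.0202 with limma), a call lost with the title tag as a term, at a similar difference with a wider error (−0.53, SE 0.16, adjusted p = 0.0757), and without control library 3 or 5 or library 51 of 1 g/L (−0.38, −0.40 and −0.41). Nr2f2, the receptor COUP-TFII, rose at each dose (0.25, 0.32 and 0.64, SE 0.07), but its 1 g/L call was lost with median-ratio scaling (0.20) and with quantile normalization (0.20). That call was also lost without control library 4 or 5 or library 52, 53 or 54 of 1 g/L (0.23 to 0.24). Nfil3, a repressor in the clock output pathway, fell at 2 g/L (−0.94, SE 0.17, adjusted p = 9.5e-05 with limma) and 3.5 g/L (−1.33). Dbp, the activator that shares its binding sites, was higher at 3.5 g/L (1.85, SE 0.38), where it ranged widely, from 0.419 to 14.6 RPKM. Dbp measured 0.156 to 0.312 RPKM in controls and 0.137 to 0.254 at 1 g/L, all below the filter's 0.5 RPKM. It was thus tested only through the upper doses, where it is high, and nothing is read from its call. Nr0b2, the corepressor SHP and a target of FXR, fell at 2 g/L (−1.25, SE 0.20, adjusted p = 2.41e-05 with limma) and was at −0.24 at 3.5 g/L (adjusted p = 0.336). With the title tag as a term the 2 g/L calls of Nfil3 (−0.79, adjusted p = 0.0772) and Nr0b2 (−0.86, adjusted p = 0.0939) were lost.

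The factors whose motifs were searched are added after their values were seen. Hnf4a, which drives many clotting genes in hepatocytes, measured 84.1 to 112 RPKM in controls and 122 to 133 at 3.5 g/L and rose there (0.44, SE 0.07, adjusted p = 2.33e-05 with limma), while at 1 and 2 g/L it was at −0.02 and 0.01. Cebpa measured 36.6 ± 4.05 RPKM in controls and 42.5 ± 5.30 at 3.5 g/L (SD, n = 6) and did not pass the test at any dose (0.21 at 3.5 g/L, adjusted p = 0.0635 with limma), but was called higher there without control library 6 (0.25), library 74 or 77 of 2 g/L (0.21 each) or library 97 of 3.5 g/L (0.24). Cebpb did not pass it either (−0.53 at 1 g/L, SE 0.19, adjusted p = 0.0678 with limma), but was called lower at 1 g/L without control library 7 (−0.61) or 8 (−0.64), library 49 of 1 g/L (−0.61) or library 76 of 2 g/L (−0.53). Cebpd was lower at 3.5 g/L (−0.21, SE 0.08, adjusted p = 0.0255 with limma), a call lost without control library 3 or 5 or library 97 or 98 of 3.5 g/L (−0.18 to −0.19). Foxa1, Foxa2 and Foxa3 did not pass it either, although Foxa2 was called lower at 3.5 g/L with median-ratio scaling (−0.57, SE 0.23) and with quantile normalization (−0.59).

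The title tag could be compared with dose held only at 1 g/L, 3 libraries against 3. Between L1 and L2, F5 averaged 37.6 and 41.7 RPKM and Klkb1 58.6 and 63.8 RPKM, with no overlap between the tags. In an exact permutation test, two-sided, these 2 members had p = 0.10, the smallest that 3 against 3 can give, and adjusted p = 0.5 over the 10 members. Of the 10 members 4 were higher in L2. With the tag as a term, 3 members (F2, F5 and F12) were called lower at 1 g/L in place of 5, and F9 (−0.24, SE 0.07) and Hrg (−0.23, SE 0.07) were no longer called at similar differences. Over all 6540 tested genes that term left 92 called lower and 80 higher at 1 g/L, in place of 198 and 546. At 2 g/L 8 members were called lower with it, F13b (−0.33, SE 0.12) no longer among them, beside 282 lower and 691 higher over all genes. For the 2 g/L contrast the term rests on the 3 against 3 libraries at 1 g/L alone, since all controls are L1 and all 2 g/L libraries L2. The SE at 2 g/L was then wider (F2 0.13 in place of 0.07, F11 0.20 in place of 0.11). A call lost there can thus reflect lower precision, and the part of the tag was not tested. Within tag L1 alone the 1 g/L differences are by design those of the fit with the tag as a term (F2 −0.451 in both), so this is no separate check. F2, F5 and F12 were the 3 members called at 1 g/L within L1, beside 38 lower and 12 higher over all 6540 genes. Because the members were picked with these contrasts known, nothing is read from which of them were called. The 1 g/L calls of Itih1 (−0.86, SE 0.18, adjusted p = 0.0649 with limma) and Habp2 (−0.27, SE 0.06, adjusted p = 0.0816) were lost within L1, each fit resting on 3 libraries at that dose.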

How the data were processed

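The authors deposited 1 table of RPKM per gene and library, on which everything here rests. Per the submitters' processing notes, CASAVA, STAR 2.4 and Partek were used with the mouse build mm10, without the role of each. The annotation and strand setting behind the counting are not given in the sources used here. The labels' protocols name a stranded total RNA kit with removal of ribosomal RNA. Zeros stand in the table as 1e-04. The table as held is in symbol order and ends within the line of Olfr272, which was dropped with 13 lines whose symbols had become dates. Later genes were not analysed here.

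The 6540 genes that reached 0.5 RPKM in 6 or more libraries were fitted as log2(RPKM + 1) by limma 3.58.1 (R 4.3.3), with a trend, 1 mean per dose over 24 libraries, and Benjamini-Hochberg adjustment at 0.05. The pseudocount of 1 understates changes of low genes. Relative depth (0.951 to 1.131) was taken from the commonest ratio of each library to the first over genes with low values. The absolute figure was taken from 946 genes whose values were whole multiples of 1 read, with a tolerance of 0.02 (quartiles 18,600,000 to 28,200,000). Within-dose relations used 100000 resamples (numpy 2.4.6, scipy 1.17.1). Scripts were tested on simulated data. The members and lists were chosen with earlier results of these data known. All 10 members were named, and at most 12 other genes per comparison by absolute log2 difference, beside those marked. Of the listed genes 1 is not reported here, and counts are over the others. Alternatives were median-ratio and quantile scaling, a pseudocount of 0.1, no filter, the title tag as a term or within L1, and each library left out. GENCODE coordinates and RefSeq promoters are on GRCm38.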

Additional observations from a re-analysis of the deposited data

Results flagged for a closer look

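In 40 groups (10 members at 4 doses of 6 libraries), Dixon's ratio of the gap to the range was above its 95% critical value in 2, and chance flags about 1 in 20 groups. F2 in control library 3 measured 416 RPKM, below the other 5 controls at 443 to 458 RPKM (gap over range 0.639). F9 in library 98 at 3.5 g/L measured 29.5 RPKM, above the other libraries of that dose at 24.5 to 25.1 RPKM (gap over range 0.889).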

How the results depend on the processing

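Of 150 member differences under another scaling, pseudocount, filter or tag setting, 112 moved by less than the spread between replicates and 38 by more. With 1 library left out, 716 of 720 moved by less and 4 by more. Of the differences called as deposited 0 changed sign. Of those not called, F13b at 1 g/L (0.03) changed sign in 4 of 6 other settings and in 1 of 24 fits with 1 library left out, F11 there (−0.02) in 3 and F10 there (−0.03) in 1. With the title tag as a term, 3 members were called at 1 g/L in place of 5 and 8 at 2 g/L in place of 9, and 5 of the other clotting and regulatory genes in place of 10, and at 2 g/L 12 of those in place of 27. Within tag L1 alone 3 members and 4 other genes were called at 1 g/L, beside 38 lower and 12 higher over all tested genes. With the tag as a term, all 6540 tested genes had 92 lower and 80 higher at 1 g/L and 282 lower and 691 higher at 2 g/L. Nothing is read from the members' counts, because the members were picked with these contrasts known. With 1 library left out the counts of members called were 5 at 1 g/L, 9 to 10 at 2 g/L and 10 at 3.5 g/L, and those of the other genes 7 to 12, 25 to 29 and 32 to 36. Genes called higher at 1 g/L, 546 over all tested, numbered 306 without control library 3 and 776 without library 49 of that dose, the extremes with 1 library left out. Without libraries 52 and 54 of that dose they numbered 311 and 328, and with median-ratio scaling 233. Gabpa, higher at each dose as deposited, was at −0.016 and −0.02 with quantile normalization at 2 and 3.5 g/L and at −0.035 with the tag at 2 g/L, and the cause was not tested. Of the relations with F2 within dose, 4 of 9 passed as deposited, 4 with median-ratio scaling, 4 with a pseudocount of 0.1, 6 with quantile normalization and 6 with the mean of each dose and tag removed. The share of all tested genes that would pass was not computed, so nothing is read from these counts. No paired analysis was possible because replicate numbers are not shared between doses. The number of libraries limits the precision of small differences, such as those of F10 and F13b.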

Other observations

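Within 2 g/L, the library with the lowest Ehhadh had the highest F2, a comparison made after the values were seen. Ehhadh, the peroxisomal enzyme, measured 165 RPKM in library 78, 673 in library 77 and 787 in library 76, where F2 measured 284, 256 and 235 RPKM. In libraries 73, 74 and 75 Ehhadh measured 1262, 1409 and 1559 RPKM and F2 195, 211 and 216 RPKM. F11 measured 21.9, 17.0 and 19.5 RPKM in the first 3 of these libraries and 13.9, 11.1 and 15.2 RPKM in the others. These are values of 6 libraries, with no test.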
